A study of Mus musculus with 27 samples.

Results

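The enzymes described here oxidize or reduce alcohols and aldehydes, and their RNA was measured in whole brains of DBA and C57 mice. They are 10 genes chosen by name: the aldehyde dehydrogenases Aldh9a1, Aldh7a1, Aldh1a1, Aldh1a2, Aldh2 and Aldh3a2, the alcohol dehydrogenases Adh5 and Adh7, the aldehyde reductase Akr1a1 and the cytochrome P450 Cyp2e1. All probe sets (groups of short probes for 1 transcript) that the platform annotation gives to one of these genes were taken, which made 17 of the 12422 probe sets that are not array controls. A probe set listed for Aldh1a7, a name that RefSeq also keeps as an older synonym of Aldh1a2, was not counted because its gene identifier is that of another gene. Both groups were untreated mice at 10 weeks of age: 4 DBA/2J mice, whose sex the labels do not give, and 5 male mice of the strain written as C57BL/2. Each animal had 1 array of the kind used here, hybridised with labelled cRNA from 5 ug of total RNA, so that p-values measure the spread between animals as far as the labels identify them. The samples were bulk tissue, in which fewer cells of a type and less RNA per cell cannot be told apart.

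Ethanol and many body-made alcohols are first oxidized to aldehydes, by alcohol dehydrogenases, by the microsomal enzyme CYP2E1 and, in brain, also by catalase. Aldehyde dehydrogenases then turn the reactive aldehydes into acids, and aldo-keto reductases such as AKR1A1 turn them back into alcohols. In brain the same enzymes handle aldehydes from amino acids, polyamines, monoamines, membrane lipids and vitamin A. Inbred C57 and DBA mice are long used in alcohol research, because many C57 lines drink ethanol freely and DBA lines avoid it.

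Array medians of intensity ran from 168 to 188 in DBA and from 159.6 to 197.8 in C57, and arrays correlated pairwise at 0.945 to 0.970 across probe sets. Control sets for both ends of long transcripts give a sign of RNA quality, as the log2 of 3' over 5' intensity. For Gapdh it was -0.44 to -0.32 in DBA and -0.29 to -0.19 in C57, without overlap (exact 2-sided permutation p = 0.0159). The same ratios of Actb, Tfrc and Pcx overlapped between the strains (exact permutation p of 0.159, 0.135 and 0.0556). The part of RNA quality in the results was not tested. The probe set of Xist, the RNA that coats an inactive X chromosome, was below the brightness limit in both strains (geometric means 21.4 in DBA and 26.5 in C57), and that of the Y-linked gene Eif2s3y overlapped (325 and 309). Of the 4 sex-linked genes on the array, 2 were bright enough to test and 0 passed. Uty, also Y-linked, had the smallest p of these (-0.63 ± 0.31, adjusted p = 0.461).

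In DBA brain, the intensities of Aldh9a1 and Aldh7a1 were lower than in C57 brain, and none of the other 8 enzymes passed the test. A probe set was tested if its mean over the 9 arrays lay above the dimmest 25%, an intensity of 35.4, called the brightness limit here. Of the 17 probe sets 16 were tested, and all 10 genes had at least 1 tested set. At an adjusted p under 0.05 (limma, adjusted over all 9316 probe sets tested) 3 of 16 sets were lower in DBA and 0 higher, while over all sets 2.5% were called, 1.61% lower and 0.891% higher. By the brightest set of each gene 2 of 10 genes were lower, against 1.46% of 6864 named genes, with 0.772% higher. The genes were named with earlier results of these data known, so this count is a description. The median log2 difference of the 16 sets was -0.05, with 10 below 0 and 6 above, and that of all tested sets was 0.01. The plot of intensities by array shows the spread behind these counts.

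**Figure D1:**
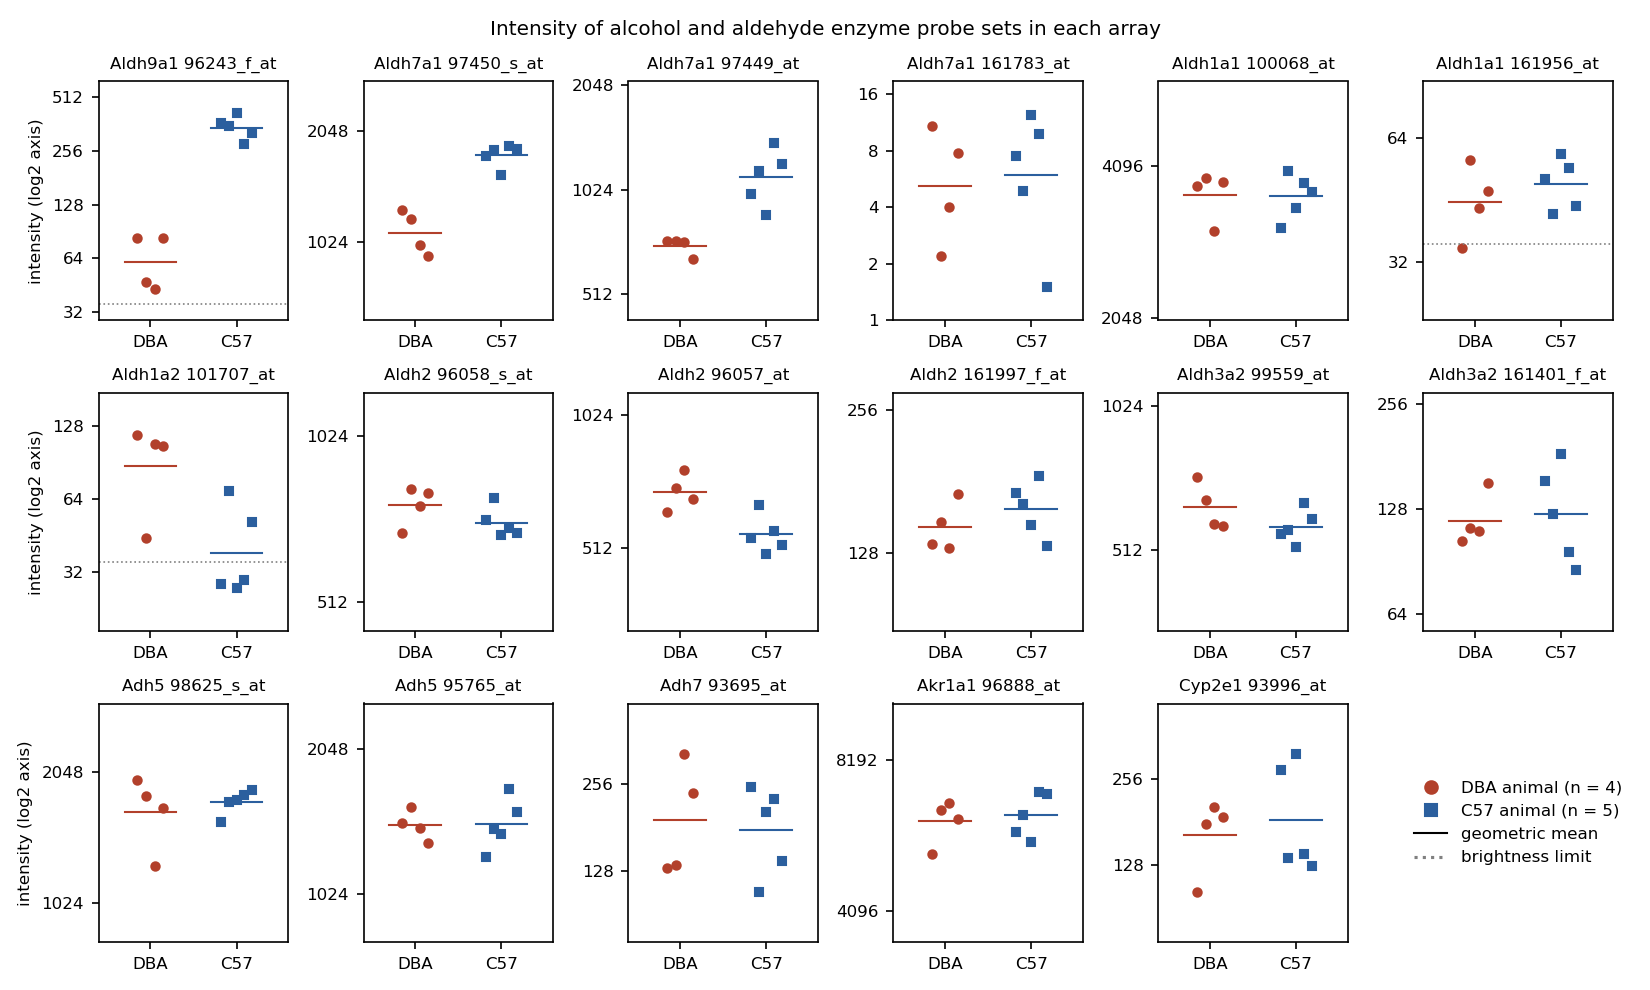
Intensity of each of the 17 probe sets (y axes, log2 scale, a different range in each panel) in 4 DBA animals (circles, left) and 5 C57 animals (squares, right), in order of animal number, with geometric means as lines and the brightness limit as a dotted line where it falls in range. The strains are fully apart at Aldh9a1 and at a pair of Aldh7a1 sets, and overlap in the other 14 panels.

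ALDH9A1 oxidizes 4-trimethylaminobutyraldehyde, a step of carnitine synthesis, and 4-aminobutyraldehyde, a polyamine product that yields GABA without glutamate decarboxylase. Its single probe set, 96243_f_at, read 82.7, 47.1, 43.2 and 83.4 in DBA animals 1 to 4, against 363.8, 350.4, 415.6, 278.6 and 322.4 in C57 animals 1 to 5. The highest DBA animal was thus below the lowest C57 animal, and all 9 readings stayed above the brightness limit. Among the DBA animals, numbers 1 and 4 were close to each other, and so were numbers 2 and 3 at a lower level. The geometric mean was 61.2 in DBA and 343 in C57, a 5.61-fold lower intensity in DBA (log2 difference -2.49 ± 0.23, SE, 95% interval -2.99 to -1.98, adjusted p = 0.000244). Whether the probes match DBA and C57 sequence equally was not tested, here or at other sets. The exact 2-sided permutation p was 0.00794, the smallest that exchanging 4 and 5 animals can give. The log2 SD was 0.51 within DBA and 0.21 within C57. The suffix f_at marks a set whose probes can match a family of similar sequences, and no other set of this gene was on the array to set beside it. Aldh9a1 was not among the genes tested when sets with such suffixes, or the dimmest 50% of sets, were left out.

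The start region of Aldh9a1 is shown because this gene had the largest difference of the 10. It is given from 250 bases before to 50 bases after the annotated start, 5′ to 3′ on the plus strand, from RefSeq on build GRCm38.p6 (chr1:167349741-167350040). The build is that of a C57BL/6J genome, so it shows nothing of DBA sequence. Capitals mark the 1 match to TGACNNNGC, the core letters of an antioxidant response element, searched on both strands.
Aldh9a1: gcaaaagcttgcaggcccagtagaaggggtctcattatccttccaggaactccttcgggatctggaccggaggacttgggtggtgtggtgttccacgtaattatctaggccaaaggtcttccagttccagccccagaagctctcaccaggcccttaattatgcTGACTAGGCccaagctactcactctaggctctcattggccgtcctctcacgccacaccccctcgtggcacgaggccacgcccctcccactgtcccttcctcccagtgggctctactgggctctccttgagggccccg
The window holds 9 CG dinucleotides, against a median of 7 in all 32851 RefSeq start regions of this length. The capitalised motif was found in 12.4% of these start regions. The GC box, searched as GGGCGG on both strands, was found in 35.7% of these start regions and not in this window. The TATA box, searched as TATAAA on both strands, was found in 13.6% and not in this window. A match is a run of letters and not a shown binding site.

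ALDH7A1, also called antiquitin, oxidizes the semialdehyde of 2-aminoadipic acid in lysine breakdown, and its loss in humans causes an epilepsy that responds to vitamin B6. Its brightest set, 97450_s_at, read 1246, 1183, 1002 and 938.0 in DBA animals 1 to 4, against 1754, 1822, 1557, 1866 and 1830 in C57 animals 1 to 5. The second set, 97449_at, read 729.8, 730.2, 724.3 and 645.9 in DBA, against 994.9, 1160, 867.0, 1397 and 1214 in C57. At both sets every DBA animal was below every C57 animal. By 97450_s_at the level in DBA was 1.62-fold lower (-0.70 ± 0.12, 95% interval -0.96 to -0.44, adjusted p = 0.00925, exact permutation p = 0.00794). By 97449_at it was 1.57-fold lower (-0.65 ± 0.14, 95% interval -0.97 to -0.33, adjusted p = 0.0452, exact permutation p = 0.0159). The third set, 161783_at, lay below the brightness limit on all 9 arrays, between 2.2 and 10.9 in DBA and between 1.5 and 12.5 in C57, and was not tested. Across the 9 arrays the log2 values of the 2 tested sets correlated at 0.926, and at 0.642 after the mean of each strain was taken off. These values share arrays and scaling and are given as a description. With each array centred on its median the adjusted p of 97450_s_at was 0.0502 and that of 97449_at was 0.150, while the log2 differences were -0.71 and -0.66. Leaving out C57 animal 3 kept the call of 97449_at (adjusted p = 0.0167), and each of the other 8 animals, left out in turn, ended it (adjusted p of 0.0603 to 0.113).

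**Figure D2:**
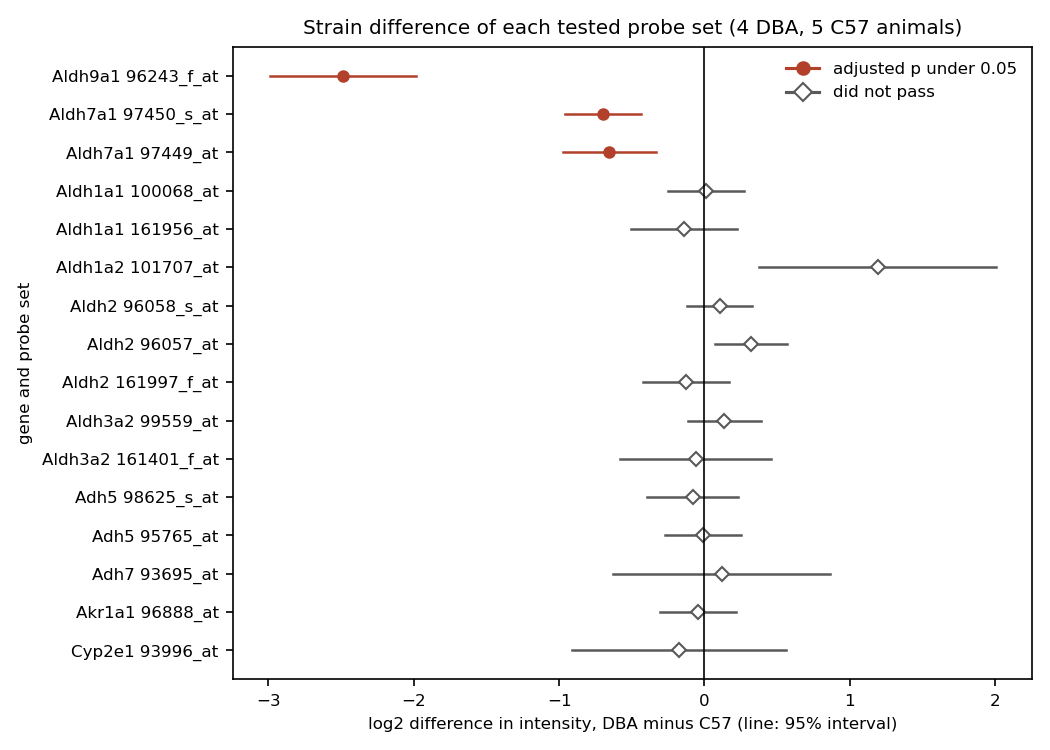
Log2 difference in intensity, DBA minus C57 (x axis), of each of the 16 tested probe sets (y axis) with its 95% interval. Filled circles passed an adjusted p under 0.05 and open diamonds did not. Aldh9a1 lies at -2.49, the Aldh7a1 sets at -0.70 and -0.65, and Aldh1a2, at 1.19, has the widest interval.

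Both retinaldehyde dehydrogenases make retinoic acid, the signalling form of vitamin A. ALDH1A2 is the main source of retinoic acid in the embryo and is found in the meninges of adult brain. Its set 101707_at read 116.8, 44.4, 107.8 and 105.4 in DBA animals 1 to 4, against 28.6, 68.9, 27.5, 29.9 and 51.4 in C57 animals 1 to 5. Of the DBA animals, 3 lay above all C57 animals and number 2 lay within their range, and 3 C57 readings were below the brightness limit. The geometric mean was 87.6 in DBA and 38.4 in C57 (1.19 ± 0.36, 95% interval 0.38 to 2.00). This did not pass over all probe sets (adjusted p = 0.168), although the exact permutation p for this set alone was 0.0397. Without DBA animal 2 the difference was 1.52 ± 0.31 with an adjusted p of 0.0487, and without any 1 of the other 8 animals it ran from 1.05 to 1.40 with adjusted p of 0.0939 to 0.361. The within-strain SD, 0.62 over both strains, was larger than that of 92.0% of tested sets.

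Other tissues in which Aldh1a2 or the retinoid genes are known were read beside it. Of 14 tested meninges markers 0 passed, the median was 0.06, and their summed intensity overlapped (22868 to 27763 in DBA, 23299 to 29062 in C57, exact permutation p = 0.310 on the log2 scale). Of the 14, 8 were above 0 and 6 below. Dcn, the extracellular matrix protein decorin, had the smallest p of these (0.42 ± 0.10, adjusted p = 0.0751). Its strains did not overlap, as at 6.45% of all tested sets. The next smallest p was that of Igf2, also above 0 (0.36 ± 0.16, adjusted p = 0.403). Ptgds, the brightest marker in the sum, was below 0 (geometric means 11378 in DBA and 14066 in C57, -0.31 ± 0.17). Foxc1, a defining transcription factor of meninges, was below the brightness limit in both strains (geometric means 16.9 in DBA and 9.51 in C57). Of 5 tested choroid plexus markers 0 passed. Of these, 4 were above 0 and F5, a clotting factor, was below (-0.75 ± 0.37). The geometric mean of F5 was 30.7 in DBA, below the brightness limit, and 51.6 in C57. The summed intensity of the 5 markers did not overlap. The sums were 5108, 4973, 6080 and 5637 in DBA animals 1 to 4, against 2252, 4723, 3745, 4450 and 3894 in C57 animals 1 to 5 (exact permutation p = 0.0238). DBA animal 2, low at Aldh1a2, was the lowest DBA animal by this sum and above all C57 animals. C57 animal 2 was the highest C57 animal both by this sum and at Aldh1a2 (68.9). C57 animal 4, the next highest C57 animal by the sum, read 29.9 at Aldh1a2. Most of the sum was Ttr, which by itself overlapped (2969.6 to 4143.2 in DBA, 907.4 to 2970.3 in C57). Without Ttr the sum of the other 4 overlapped too, with 1936 to 2004 in DBA and 1345 to 2010 in C57. Most of that sum was Igfbp2 (geometric means 1425 in DBA and 1288 in C57), which was also counted as a meninges marker. Aqp1, a water channel of choroid plexus, was below the limit at both of its sets. The part of meninges or choroid plexus RNA in the Aldh1a2 values was not tested.

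The start region of Aldh1a2 is shown beside that of Aldh9a1 because it had the largest difference in the other direction, although it did not pass. It comes from RefSeq on the same build (chr9:71215539-71215838, plus strand), and capitals again mark TGACNNNGC.
Aldh1a2: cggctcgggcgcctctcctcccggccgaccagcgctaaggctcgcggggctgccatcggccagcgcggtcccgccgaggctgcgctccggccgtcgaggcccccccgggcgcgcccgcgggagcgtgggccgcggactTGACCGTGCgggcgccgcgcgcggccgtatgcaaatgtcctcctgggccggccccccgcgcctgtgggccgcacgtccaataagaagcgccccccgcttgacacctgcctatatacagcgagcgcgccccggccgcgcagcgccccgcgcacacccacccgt
It holds 50 CG dinucleotides, more than 99.1% of RefSeq start regions. Counted from the annotated start, the match begins at -112 here and at -87 in Aldh9a1. Start regions of 8 of the 10 genes were searched, in 10 windows, and the other windows held 0 matches to TGACNNNGC. The genes without a window were not searched, so the match is not shown to be confined to Aldh9a1 and Aldh1a2 among the 10. The GC box was found in windows of Adh5 and Aldh3a2, and the TATA box in windows of Adh5, Adh7 and Cyp2e1.

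ALDH1A1, the other retinaldehyde dehydrogenase, is abundant in a group of midbrain dopamine neurons, where it also clears the aldehyde of dopamine. Its set 100068_at read 3732, 3866, 3039 and 3797 in DBA animals 1 to 4, against 3087, 4008, 3380, 3792 and 3635 in C57 animals 1 to 5. The strains overlapped almost wholly, with a log2 difference of 0.01 ± 0.12 and a 95% interval of -0.25 to 0.28. The dimmer set, 161956_at, read 34.6 to 56.7 in DBA and 41.8 to 58.6 in C57 (-0.14 ± 0.16). Of 8 tested dopamine neuron markers 0 passed and the median was 0.03. The one with the smallest p was Pitx3, a transcription factor of these neurons (geometric means 29.4 in DBA, below the brightness limit, and 42.3 in C57, -0.52 ± 0.35, adjusted p = 0.638).

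ALDH2 is the mitochondrial enzyme that removes most of the acetaldehyde formed from ethanol. Its 3 sets did not give 1 picture. At 96057_at the readings were 618.8, 699.1, 767.2 and 660.5 in DBA animals 1 to 4, against 540.2, 639.5, 497.2, 560.3 and 519.3 in C57 animals 1 to 5. Only C57 animal 2 reached into the DBA range, and the log2 difference was 0.32 ± 0.11 (95% interval 0.07 to 0.57, exact permutation p = 0.0238), which did not pass over all sets (adjusted p = 0.246). At the brightest set, 96058_s_at, DBA read 681.8 to 820.2 and C57 677.6 to 792.0, a difference of 0.10 ± 0.10 (adjusted p = 0.776). At 161997_f_at DBA read 130.9 to 170.4 and C57 132.4 to 185.9, with the opposite sign (-0.13 ± 0.13, adjusted p = 0.793). The log2 values of 96058_s_at and 96057_at correlated at 0.761 across the 9 arrays, and those of 96057_at and 161997_f_at at -0.192.

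ALDH3A2 oxidizes long-chain fatty aldehydes of membrane lipids, and its loss in humans causes Sjögren-Larsson syndrome. Its brightest set, 99559_at, read 728.8, 649.6, 579.5 and 573.1 in DBA animals 1 to 4, against 552.6, 563.7, 517.6, 640.5 and 594.6 in C57 animals 1 to 5. The strains overlapped (0.14 ± 0.11, 95% interval -0.11 to 0.39, adjusted p = 0.717). The dimmer set 161401_f_at read 103.6 to 151.7 in DBA and 85.4 to 183.6 in C57 (-0.06 ± 0.23). Over the 9 arrays the log2 values of these sets ran against each other, with a correlation of -0.675.

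ADH5, the class III alcohol dehydrogenase, oxidizes the glutathione adduct of formaldehyde and reduces S-nitrosoglutathione, and it acts poorly on ethanol at low concentration. Its set 98625_s_at read 1969, 1804, 1247 and 1700 in DBA animals 1 to 4, against 1578, 1753, 1765, 1814 and 1866 in C57 animals 1 to 5. DBA animal 3 was the lowest of all 9, and the strains overlapped (-0.08 ± 0.14, 95% interval -0.39 to 0.23). The other set, 95765_at, read 1305 to 1549 in DBA and 1222 to 1692 in C57 (-0.01 ± 0.12, 95% interval -0.27 to 0.25). ADH7 is the class IV enzyme of stomach and other epithelia, with high activity on retinol. Its set 93695_at read 130.6, 134.1, 323.8 and 238.7 in DBA, against 249.7, 108.3, 204.0, 226.3 and 138.5 in C57. Animals of both strains spread over the same range (0.12 ± 0.33), and the interval of -0.63 to 0.87 leaves room for a difference of either sign.

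AKR1A1 reduces aldehydes with NADPH and, in mice, takes part in ascorbate synthesis. Its set 96888_at read 5328, 6519, 6750 and 6267 in DBA animals 1 to 4, against 5898, 6374, 5625, 7091 and 7035 in C57 animals 1 to 5. The strains overlapped (-0.04 ± 0.12, 95% interval -0.30 to 0.22). CYP2E1 oxidizes ethanol in the endoplasmic reticulum and is induced by it. Its set 93996_at read 102.2, 178.5, 203.8 and 187.6 in DBA, against 275.5, 135.2, 314.8, 139.0 and 126.5 in C57. C57 animals 1 and 3 were the highest of the 9 and the other C57 animals fell within the DBA range (-0.17 ± 0.33, 95% interval -0.91 to 0.56).

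Of the 16 tested sets, 3 had strains that did not overlap, all lower in DBA, while 6.45% of all tested sets were without overlap, 3.61% lower in DBA and 2.84% higher. The exact permutation p was under 0.05 at 5 sets, the 3 called ones, Aldh1a2 and Aldh2 at 96057_at, and at 12.4% of all tested sets. The same 5 sets had an unadjusted limma p under 0.05, against 12.2% of all tested sets. The 95% interval stayed within 1 log2 unit of 0 on both sides at 14 of 16 sets, and within 0.5 at 7. The sets outside 1 log2 unit were those of Aldh9a1 and Aldh1a2. The median within-strain log2 SD was 0.19 for the 16 sets and 0.24 for all tested sets, and the sets of Aldh1a2, Adh7 and Cyp2e1 had larger SDs than 92.0%, 89.9% and 89.5% of all tested sets. The plot with each animal left out shows how far single animals carried the differences.

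**Figure D3:**
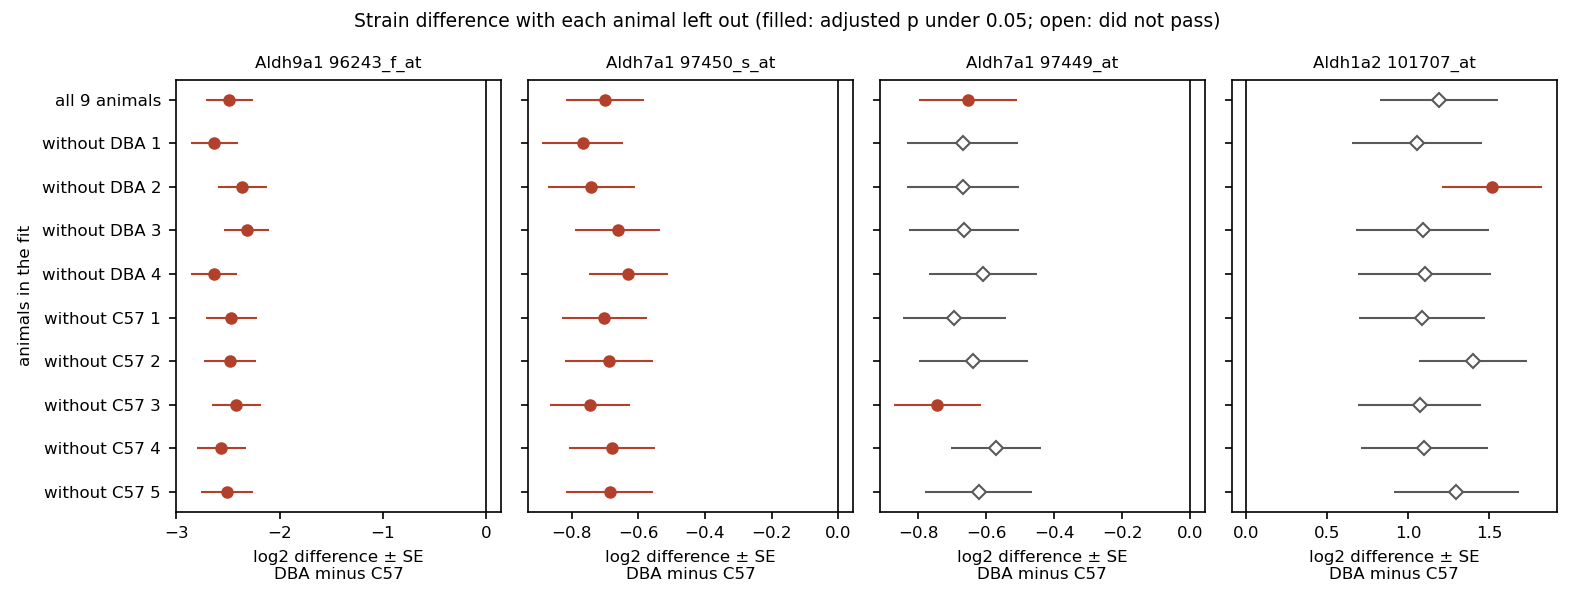
Log2 difference, DBA minus C57 (x axes, with SE as bars), of 4 probe sets fitted with all 9 animals and with each animal left out (y axis); filled circles passed an adjusted p under 0.05. Aldh9a1 and Aldh7a1 97450_s_at passed in all 10 fits, Aldh7a1 97449_at with all animals and without C57 animal 3, and Aldh1a2 only without DBA animal 2.

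Further enzymes that make or remove alcohols, aldehydes and ketones showed 1 change among 16 tested genes. Cbr3, a carbonyl reductase, was 1.74-fold higher in DBA. It read 245.4, 302.4, 333.6 and 253.4 in DBA animals 1 to 4, against 160.4, 198.8, 119.4, 179.9 and 160.9 in C57 animals 1 to 5, without overlap (0.80 ± 0.16, adjusted p = 0.0305). The median of this list was 0.16, with 12 of 16 above 0, and 2.23% of all named genes were called. The summed intensity of the list did not overlap (5212 to 5880 in DBA, 4344 to 4858 in C57). Akr7a5 had the next smallest p, above 0 with overlap (0.58 ± 0.18, adjusted p = 0.159). The list also held Cat, the catalase that oxidizes ethanol in brain (-0.07 ± 0.21), Cbr1 (0.17 ± 0.12) and Aldh18a1, of proline synthesis (0.23 ± 0.21). None of these passed. Another 8 genes of this list lay below the brightness limit, among them Adh1, the classical liver alcohol dehydrogenase (geometric means 31.6 in DBA and 28.0 in C57), and Aldh1a7 (30.3 and 29.7).

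Genes of the polyamine, GABA and carnitine routes around ALDH9A1 were read next. Of 8 amine oxidase and polyamine genes 0 passed, and Srm, which makes spermidine, had the smallest p (0.25 ± 0.09, adjusted p = 0.266). Of 10 GABA and carnitine genes 1 was lower in DBA and 0 higher, with a median of 0.06. Over all named genes, 1.46% were lower and 0.772% higher. The lower one was Slc32a1, the transporter that loads GABA into synaptic vesicles. Its readings were 1652, 1611, 1511 and 1724 in DBA animals 1 to 4, against 3057, 5996, 4604, 7608 and 7767 in C57 animals 1 to 5 (-1.76 ± 0.26, adjusted p = 0.00416). The GABA-making enzymes Gad1 and Gad2 did not pass (0.01 ± 0.13 and 0.22 ± 0.24). Crat, a carnitine acetyltransferase, had a difference of 0.49 ± 0.12 that did not pass (adjusted p = 0.0766). Srm, Slc32a1 and Crat were each without overlap between the strains, as were 6.45% of all tested sets.

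Of 7 tested genes of lysine breakdown, the pathway of ALDH7A1, 1 was lower and 0 higher in DBA, with a median of -0.10. The shares over all named genes were 1.46% lower and 0.772% higher. Crym, a ketimine reductase of the pipecolate branch that also binds thyroid hormone, read 373.7, 401.2, 442.8 and 357.5 in DBA, against 552.0, 622.1, 516.5, 536.8 and 565.4 in C57. The strains did not overlap, and Crym was 1.42-fold lower in DBA (-0.51 ± 0.10, adjusted p = 0.0318). Aass, the first enzyme of the saccharopine branch, differed by -0.10 ± 0.14. Pipox, which oxidizes pipecolate, differed by 0.64 ± 0.19 and did not pass (adjusted p = 0.146). Of 9 tested retinoic acid pathway genes 0 passed, with a median of 0.14. Ttr, the carrier of thyroid hormone and retinol-binding protein made by choroid plexus, had the smallest p (0.85 ± 0.30, adjusted p = 0.257). Of the 9, 6 were above 0 and 3 below. The next smallest p were those of Rbp4, the plasma carrier of retinol (-0.34 ± 0.14, adjusted p = 0.363), and the retinoid X receptor gene Rxrg (-0.73 ± 0.30, adjusted p = 0.366), both below 0.

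**Figure D4:**
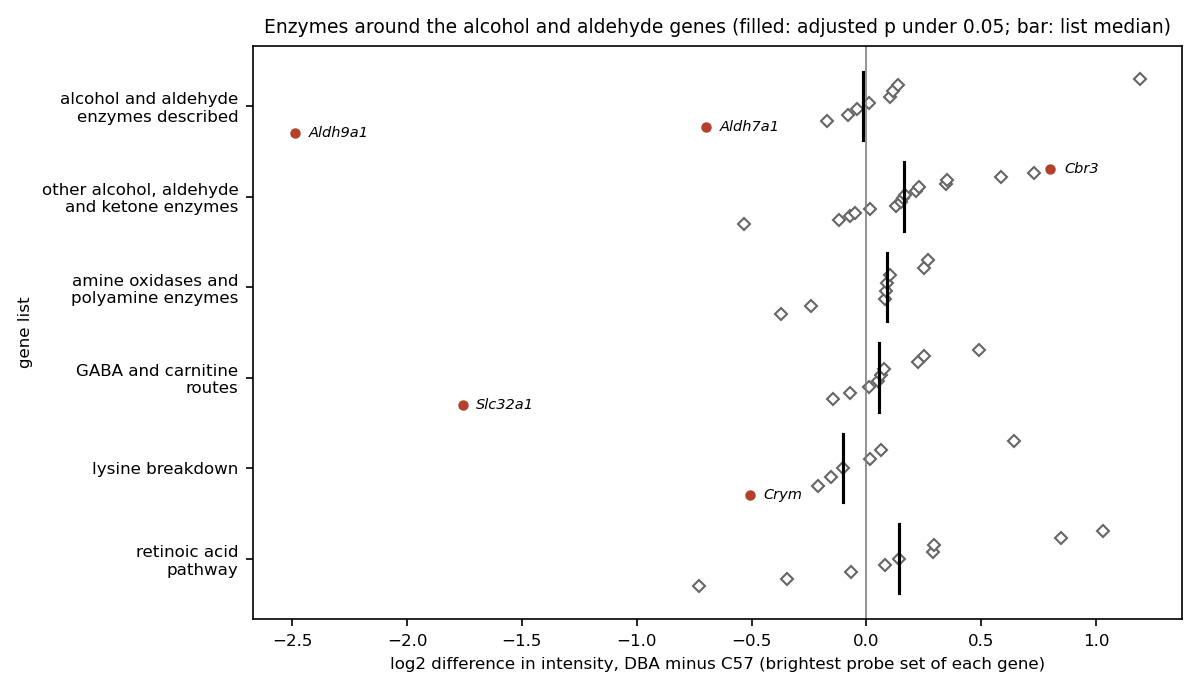
Log2 difference, DBA minus C57 (x axis), of the brightest probe set of each tested gene in 6 gene lists (y axis); filled circles passed an adjusted p under 0.05 and black bars are list medians. Aldh9a1, Aldh7a1, Slc32a1 and Crym lie below 0 and Cbr3 above it, while the medians lie between -0.10 and 0.16.

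Markers of brain cell types were read beside the called enzymes. Of 11 astrocyte markers 0 passed, the median was -0.16, and their summed intensity overlapped (25285 to 27878 in DBA, 24556 to 30278 in C57). Of the 11, 7 were below 0 and 4 above. Glul, glutamine synthetase, had the smallest p and was without overlap (-0.54 ± 0.16, adjusted p = 0.140). The next smallest p was that of Slc1a2, above 0 (0.34 ± 0.12, adjusted p = 0.229). Of 6 blood markers 0 passed, 4 were below 0 and 2 above, and the sums overlapped (13004 to 17002 in DBA, 11217 to 16614 in C57). The smallest p was that of S100a8, a granulocyte gene (-1.01 ± 0.23, adjusted p = 0.0506). Those above 0 were Car2, a carbonic anhydrase (0.43 ± 0.11, adjusted p = 0.0929), and the globin gene Hbb-b2 (0.60 ± 0.21, adjusted p = 0.253). S100a8 and Car2 were without overlap. Much of the blood sum was Car2, with geometric means of 6796 in DBA and 5050 in C57. Whether the Car2 RNA came from blood was not tested. Of 7 oligodendrocyte markers 0 passed by the brightest set, but 6 were below 0 and the median was -0.36. The smallest p were those of the myelin genes Mag (-0.57 ± 0.16, adjusted p = 0.120), Cldn11 (-0.59 ± 0.16, adjusted p = 0.127) and Mog (-0.62 ± 0.18, adjusted p = 0.137). Another set of the myelin gene Mobp, 99046_at, passed (-0.84 ± 0.12, adjusted p = 0.00416), while its brightest set differed by -0.11 ± 0.19. The summed oligodendrocyte markers overlapped (21247 to 25063 in DBA, 21341 to 29347 in C57). Of 14 vessel markers 0 passed, 9 were below 0 and 5 above, and the median was -0.05. Myh11, of smooth muscle, had the smallest p and was above 0 (0.66 ± 0.20, adjusted p = 0.158). The endothelial genes Abcb1a (-0.53 ± 0.16, adjusted p = 0.176), Slc2a1 (-0.33 ± 0.11, adjusted p = 0.211) and Vwf (-0.34 ± 0.11, adjusted p = 0.219) were below 0. Each was without overlap between the strains, and so was Myh11, while 6.45% of all tested sets were without overlap. The summed vessel markers were 4218 to 5204 in DBA and 5125 to 5521 in C57. Of 11 neuron markers 0 passed, with a median of 0.06 and the smallest p at Syn2 (0.27 ± 0.09, adjusted p = 0.205), which was without overlap. Of 9 microglia markers 2 were lower in DBA, against 1.46% of all named genes. They were C1qb (-0.85 ± 0.12, adjusted p = 0.00343) and C1qc (-0.65 ± 0.13, adjusted p = 0.0318), each without overlap. Of the 9, 6 were below 0 and 3 above, with a median of -0.15. The next smallest p was that of Ctss, above 0 (0.32 ± 0.12, adjusted p = 0.290). The summed microglia markers overlapped (6525 to 7246 in DBA, 6604 to 8042 in C57). The part of these cell types in the Aldh9a1 and Aldh7a1 differences was not tested.

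Aldh9a1 lies on chromosome 1 and Aldh7a1 on chromosome 18, by the gene order of RefSeq on GRCm38.p6. Up to 5 tested genes on each side were compared. Of the 10 neighbours of Aldh9a1, 1 passed, against 2.23% of all named genes, and this was the next gene in the order. It was Mgst3, a microsomal glutathione S-transferase, and it went the other way. Its set 96258_at read 4751, 5156, 4364 and 3968 in DBA animals 1 to 4, against 2151, 2804, 2684, 3044 and 3422 in C57 animals 1 to 5, without overlap (0.70 ± 0.15, adjusted p = 0.0346). Its other set, 99576_at, was below the brightness limit. Creg1, the farthest of those before Aldh9a1, was without overlap but did not pass (-0.50 ± 0.15, adjusted p = 0.155). Tmco1, the nearest tested gene on the other side, differed by 0.10 ± 0.15. Of the 10 neighbours of Aldh7a1 0 passed by limma. The nearest ones were Gramd3 (-0.61 ± 0.17, adjusted p = 0.138), whose strains did not overlap, and Lmnb1, a nuclear lamina protein (0.13 ± 0.15). Slc12a2, a chloride transporter further along, was also without overlap (-0.41 ± 0.11, adjusted p = 0.0990). Over all tested sets, 6.45% were without overlap.

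**Figure D5:**
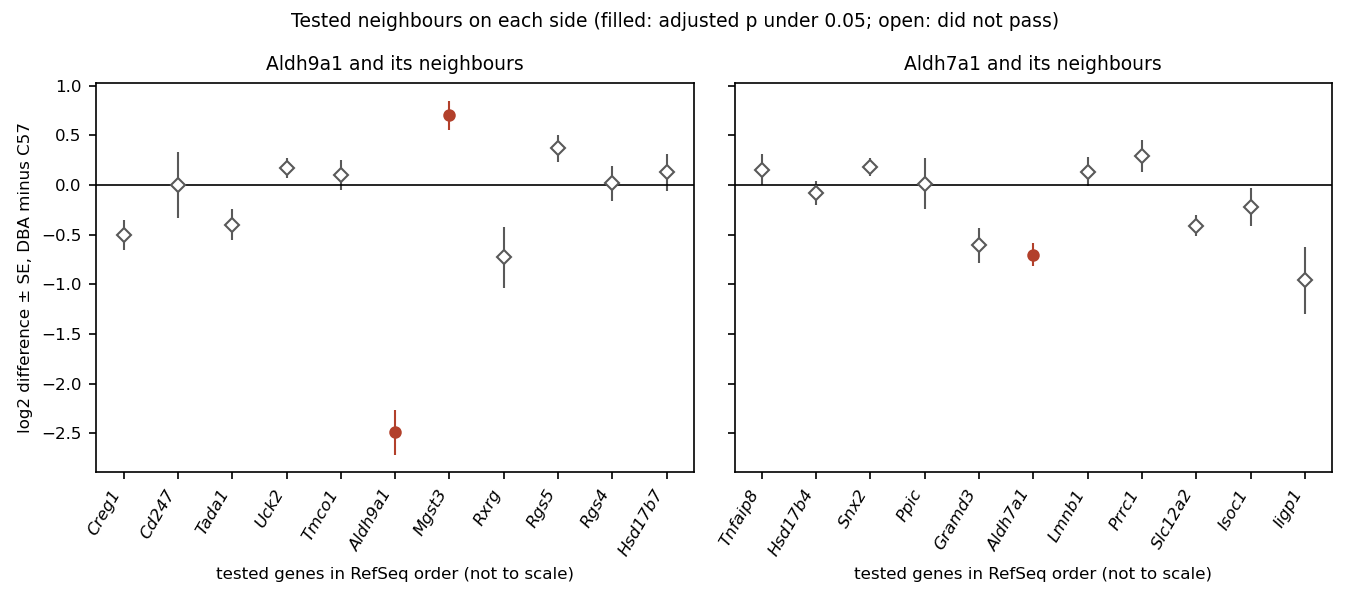
Log2 difference, DBA minus C57, with SE (y axis), of Aldh9a1 (left) and Aldh7a1 (right) and of the 5 nearest tested genes on each side in RefSeq order (x axis, not to scale); filled circles passed an adjusted p under 0.05. Mgst3, next to Aldh9a1, lies at 0.70 and Aldh9a1 at -2.49, and Aldh7a1 alone passed in its panel.

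The genes whose log2 intensity over the 9 arrays was most like that of Aldh9a1 were Eloa, an elongin subunit (Pearson r = 0.993, or 0.924 with strain means taken off), Pkia, an inhibitor of protein kinase A (0.992 and 0.941), and Nudt19, a hydrolase of coenzyme A (0.989 and 0.833). All were lower in DBA, with log2 differences of -1.16, -1.45 and -1.49 in the order named. Those most like Aldh7a1 at 97450_s_at were Pccb, of propionyl-CoA breakdown (0.975 and 0.820), the complement gene C1qb (0.973 and 0.765) and Gm15772, a predicted gene (0.972 and 0.746). These 3 were also lower in DBA, by -1.12, -0.85 and -0.69. Such values were picked as the highest among 9316 sets and share arrays, scaling and the strain difference, so they are a description only.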

How the data were processed

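The authors deposited linear intensity values of 12488 probe sets on 9 arrays, which the submitters' labels tie to 4 DBA and 5 C57 brains. How the scanner images became one value per set is not given in the sources used here. The mean without the top and bottom 2% was 500.3 on all arrays, so each had been scaled to 1 target. A further 18 arrays of a second platform were not used here. The number of arrays limits the precision, and no detection calls were used.

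Values under the 1st percentile of positive intensities (1.70) were raised to it (0.978% of values) and log2 was taken. Array controls (66) and the dimmest 25% of sets were left out, which left 9316 sets. Array medians of log2 spanned 0.31, under the limit of 0.5 for further scaling. The strain difference (DBA minus C57) came from limma 3.58.1 under R 4.3.3, by lmFit and then eBayes with 2-sided tests. A set was called at a p under 0.05 after Benjamini-Hochberg adjustment. Folds are ratios of geometric means and ± is the SE of a log2 difference. Exact permutation tests used all arrangements of the animals, on 1 set each and unadjusted. The fit was tested on simulated data.

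The platform annotation gave 1 symbol to 10855 sets, several to 396 and none to 1237; 10839 were updated by gene identifier with the RefSeq table of GRCm38.p6. Genes are given by their brightest set unless another is named. The members, lists and alternatives were chosen with earlier results of these data known. All sets of the 10 enzymes are given. Start regions on chromosome 18, where Aldh7a1 lies, were left out of the motif searches and their shares. No start region of Aldh2 or Aldh7a1 was searched, so the motif searches do not cover these genes. From other lists up to 4 called genes, or the 1 with the smallest p, are named, with up to 5 tested neighbours on each side and the 3 most alike sets of Aldh9a1 and Aldh7a1. Cat, Cbr1, Akr7a5, Aldh18a1, Adh1, Aldh1a7, Crat, Gad1, Gad2, Aass, Pipox, Rbp4, Igf2, Ptgds, Igfbp2, Foxc1, Aqp1, F5, Cldn11, Mog, Mobp, Abcb1a, Slc2a1, Slc1a2, Ctss, Vwf, Car2, Hbb-b2, Xist, Kdm5d and Eif2s3y were named after their values were seen. The alternatives were other scaling, floors, filters, variance models, sets per gene, a stricter threshold, the animal number as a block and leaving out each animal. Figures were drawn with matplotlib 3.10.9.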

Additional observations from a re-analysis of the deposited data

Results flagged for a closer look

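At 3 of 34 strain groups checked (17 probe sets in 2 strains), 1 animal stood far from the others by Dixon's gap ratio at its 95% critical value, and chance alone flags about 1 group in 20. All 3 were DBA animals, and in each case the other 3 lay close together. DBA animal 4 read 645.9 at Aldh7a1 97449_at against 724.3 to 730.2 in the others (ratio 0.934). DBA animal 3 read 3039 at Aldh1a1 100068_at against 3732 to 3866 (ratio 0.854). DBA animal 2 read 44.4 at Aldh1a2 against 105.4 to 116.8 (ratio 0.894), and without it the Aldh1a2 difference passed (1.52, adjusted p = 0.0487).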

How the results depend on the processing

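Of 318 refitted differences of single enzyme probe sets, 283 kept their direction and side of the threshold, 15 were no longer past it, 1 came past it and 19 changed sign, all of these at sets that had not passed. Aldh9a1 passed in all 19 alternatives that tested it (-2.64 to -2.32, adjusted p 2.01e-05 to 0.0201). Aldh7a1 passed at 97450_s_at in 18 of 20 (-0.77 to -0.63) and at 97449_at in 7 of 20 (-0.74 to -0.57). The 3 called enzyme sets, 2 called enzyme genes, 5 sets with an exact p under 0.05, 5 called genes of the other lists and 233 called sets in all moved as follows. Median centring gave 1 enzyme set, 1 enzyme gene and 3 other genes. Leaving out all sets with a suffix letter f, s, r, i or g removes Aldh9a1 and also Aldh7a1 97450_s_at. It gave 1 set, Aldh7a1 97449_at, 1 gene and 3 exact. The dimmest 50% left out gave 1 enzyme gene, 3 exact and 8 other genes. The brightest set of each gene gave 3 exact and 154 sets in all. No filter gave 3 other genes, an intensity trend 10, and a threshold of 0.01 gave 2 other genes and 150 sets in all. The replicate block (animal number, without C57 animal 5) gave 1 enzyme set, 1 enzyme gene, 1 other gene and 73 sets in all; same-numbered animals did not deviate together (correlations -0.167 to -0.007), so the numbers were not taken as pairs. With 1 animal left out the counts ran from 2 to 3 enzyme sets, 2 to 3 genes, 3 to 4 exact, 2 to 6 other genes and 185 to 231 sets in all. Adh5 95765_at turned to 0.0041 with quantile normalization and 0.0128 with the replicate block. With 1 animal left out, sign changes lay within -0.0654 to 0.0522 for Adh5 95765_at, -0.16 to 0.0550 for 98625_s_at, -0.13 to 0.30 for Adh7, -0.0880 to 0.0294 for Akr1a1, -0.0414 to 0.0910 for Aldh1a1 100068_at, -0.19 to 0.0823 for Aldh3a2 161401_f_at and -0.31 to 0.0504 for Cyp2e1. The cause was not tested. Where 3 DBA or 4 C57 animals remain, or sets are dim, small differences cannot be seen.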
